A study of Mus musculus with 4 samples.

Results

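The cells described here are the blood vessel endothelial cells of the mouse common bile duct, 203 of 22968 cell barcodes in 4 droplet libraries. A cell was taken as a member when it had at least 500 detected genes, at most 25% mitochondrial UMIs, at most 3 UMIs of the epithelial gene Epcam and no UMI of the leukocyte gene Ptprc. It also had to hold a UMI (1 counted RNA molecule) of at least 3 of the 7 endothelial genes Pecam1, Cdh5, Egfl7, Flt1, Vwf, Ptprb and Esam, and of at most 1 of the lymphatic genes Prox1, Ccl21a, Mmrn1 and Lyve1. Of the 203 members, 85 came from the library in which Ctnnb1, encoding beta-catenin, had a gain of function, here called the GOF library, and 30, 30 and 58 from wild-type libraries 1, 2 and 3. Because the members were chosen by UMIs of these genes in the same cells, levels of these cells against other cells of the duct are a description with no test. Tests were made between genotypes, over sums of UMIs per library.

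The GOF library carries the genotype labelled Prom1_BcatGOF, which the series' design text gives as a mosaic Ctnnb1 gain of function, and the 3 wild-type libraries carry no stated allele. No group was treated; age, sex, strain, the construct and the cells in which the allele was switched on are not stated in the sources used, so whether any endothelial cell carried it is not known from them. Whole ducts were dissected free of neighbouring tissue, cut up, digested with dispase and a Bacillus protease, passed through a filter and captured with 10x Chromium 3′-end chemistry, by the same protocol in all 4 libraries. The labels do not say whether the wild-type libraries are separate animals; p-values therefore reflect only the spread among these samples, which could be technical, and the lone GOF library was taken to have the same spread as the wild-type ones.

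The endothelial sums held 363299 UMIs in the GOF library and 94261, 69375 and 100565 UMIs in wild-type libraries 1, 2 and 3. Median UMIs per endothelial cell were 3411 in the GOF library, against 2363.5, 1642 and 1328.5 in the wild-type libraries. Mitochondrial UMIs made up a median of 3.00% per GOF cell, against 9.26%, 10.4% and 10.3% per wild-type cell. Per the file headers, the GOF matrix came from Cell Ranger 7.0.0 with 32285 genes and the wild-type matrices from version 3.0.2 with 31053 genes. Genotype, Cell Ranger version, gene reference, depth per cell and sex cannot be told apart in this design. Between any pair of libraries 5 to 19 cell barcodes were shared, at most 0.378% of the smaller library, and none of the shared barcodes was an endothelial member in both.

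Blood endothelial cells line arteries, capillaries and veins; they hold blood in through cadherin and claudin junctions, exchange water and solutes with the tissue, and control clotting, vessel tone and the exit of leukocytes. Vessels along a bile duct form a plexus around the epithelium that is fed by the hepatic artery. Venules are the segment where leukocytes leave the blood, by rolling on P-selectin and E-selectin and then holding on to ICAM-1 and VCAM-1, while arteries carry connexin junctions and an elastic wall. Beta-catenin serves endothelium both at cadherin junctions and as the transcriptional partner of TCF and LEF factors in Wnt signalling.

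Among the genes that define these cells, Egfl7, a secreted matrix protein of endothelium, and Emcn, the sialoglycoprotein endomucin, had promoter windows that could be shown with a match to ACAGGAA, the core of a composite forkhead and ETS motif known from endothelial enhancers. The windows run from 250 bases before to 50 bases after each start and come from RefSeq on GRCm38.p6, 5′ to 3′ on the gene's strand, with the match in capitals; in Emcn it lies on the other strand and reads TTCCTGT. These windows are shown because they hold a match; of 4 windows of gate genes 2 held one, both of Egfl7, and the third window of Egfl7 and the window of Flt1 did not. The Egfl7 windows lie at chr2:26580833-26581132 and chr2:26583615-26583914 on the plus strand, and the Emcn window at chr3:137340828-137341127 on the plus strand.
Egfl7, first window: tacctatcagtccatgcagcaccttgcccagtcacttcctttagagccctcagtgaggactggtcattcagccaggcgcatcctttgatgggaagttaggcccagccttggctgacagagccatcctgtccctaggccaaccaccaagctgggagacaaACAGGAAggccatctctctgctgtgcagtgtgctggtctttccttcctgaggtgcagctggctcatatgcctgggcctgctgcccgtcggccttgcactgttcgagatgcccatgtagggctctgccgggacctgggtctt
Egfl7, later window: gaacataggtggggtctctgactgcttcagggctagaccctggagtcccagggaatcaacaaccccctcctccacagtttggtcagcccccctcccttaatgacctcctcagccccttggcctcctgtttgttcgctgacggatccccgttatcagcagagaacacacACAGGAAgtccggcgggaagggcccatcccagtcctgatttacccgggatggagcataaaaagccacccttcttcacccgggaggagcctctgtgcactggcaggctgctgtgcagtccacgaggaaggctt
Emcn: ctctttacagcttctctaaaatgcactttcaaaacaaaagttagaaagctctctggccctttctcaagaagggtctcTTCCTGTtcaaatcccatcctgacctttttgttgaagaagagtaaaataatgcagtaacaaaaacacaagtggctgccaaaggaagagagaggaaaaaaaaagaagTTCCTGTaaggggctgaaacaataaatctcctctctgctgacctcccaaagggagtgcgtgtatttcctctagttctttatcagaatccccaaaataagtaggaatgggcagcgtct
The matches start at -91 in the first Egfl7 window and -82 in the later one, and at -173 and -67 in Emcn. RefSeq windows were given for 2 of the 7 genes of the gate and for 15 of 24 further pan-endothelial genes. ACAGGAA was found on either strand in 4 of those 15 genes, Tie1, Emcn, Rasip1 and Calcrl, or 22.2% of their 18 windows, against 8.67% of all 32851 windows. CCGGAAG, a plain ETS motif, was found in none of these windows and in 8.86% of all windows. A match is a run of letters and not a shown binding site.

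The 7 genes of the rule, given as values only, were at 306 to 1666 CPM (the gene's share of all UMIs in the gate, as counts per 1e+06) across the 4 libraries and at most 21.6 CPM in all other filtered cells. Pecam1, a junction adhesion molecule, was at 1131 CPM in the GOF library and 1008, 923 and 1213 CPM in wild-type libraries 1, 2 and 3. Cdh5, the endothelial cadherin, was at 306 CPM in the GOF library and 456, 447 and 477 CPM in the wild-type libraries. The GOF value lay below all 3 wild-type values for Cdh5 and within them for Pecam1. Flt1, a VEGF receptor, was at 1027 CPM in the GOF library and 509, 461 and 457 CPM in the wild-type libraries. Vwf, the von Willebrand clotting factor, was at 947 CPM in the GOF library and 1273, 923 and 1163 CPM in the wild-type libraries. Egfl7, the phosphatase gene Ptprb and the junction gene Esam were at 911, 1294 and 413 CPM in the GOF library and at 418 to 1666 CPM in the wild-type libraries. For description only, since both genes belong to the rule, the cells of a lymphatic gate (at least 2 of the 4 lymphatic and at least 2 of the 7 endothelial genes; 125 GOF and 29, 31 and 26 wild-type cells) held 25.3 CPM of Flt1 in the GOF library and 0 in each wild-type library, and at most 24.8 CPM of Vwf.

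Markers outside the rule carried the same label. The 24 further pan-endothelial genes summed to 6815 CPM in the GOF library and 7087, 5795 and 6046 CPM in the wild-type libraries, against 7690 CPM and 6571 to 7447 CPM in the lymphatic gate, and 22 of the 24 were above all other filtered cells in every library. Reln, a secreted glycoprotein of lymphatic endothelium, was at 11 CPM in the GOF library and 0, 0 and 19.9 CPM in the wild-type libraries, against 1067 CPM and 907 to 1552 CPM in the lymphatic gate. Prox1, the lymphatic master regulator, was at 102 CPM in the GOF library and 0 in all wild-type libraries, and 19 of its 37 UMIs lay in 1 cell. The rule allows 1 of the 4 lymphatic genes at any number of UMIs, and 21 GOF and 2, 4 and 7 wild-type members held 1. The mural genes Rgs5, Cspg4 and Notch3 and the Schwann genes Sox10 and Cdh19 were at 0 in all 4 libraries. Epithelial markers summed to 760 CPM in the GOF library and 350, 1470 and 696 CPM in the wild-type libraries, and leukocyte markers to 138 CPM and 106, 159 and 348 CPM.

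Pooled levels of members just inside the threshold stood apart from the rest. The 31 cells with exactly 3 of the 7 genes had 2092 CPM of the 24 pan-endothelial genes and 5418 CPM of Dcn, the fibroblast proteoglycan decorin, while the 72 cells just outside with exactly 2 genes had 568 and 5949 CPM. A few large cells weighed heavily in the 31: 3 GOF cells held 281, 102 and 77 UMIs of Dcn, and 1 cell of wild-type library 2 held 29. At least 2 pan-endothelial genes were seen in 28 of the 31 cells (90.3%), against 57 of the 72 (79.2%). Cells with 4 to 7 genes had 6074 to 7858 CPM of the pan-endothelial genes. Fibroblast markers summed to 3047 CPM in the GOF library and 42.4, 980 and 746 CPM in the wild-type libraries. Cells with a UMI of at least 3 of 14 fibroblast and mesothelial markers accounted for most of this: there were 5 in the GOF library, holding 20.8% of its endothelial UMIs, and 0, 1 and 3 in the wild-type libraries, holding 0, 8.42% and 6.56%. Without these stromal-marker cells Dcn was at 52.1 CPM in the GOF library and 21.2, 47.2 and 53.2 CPM in the wild-type libraries. Where leaving these cells out changed the calls of a gene list, both counts are given.

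**Figure D1:**
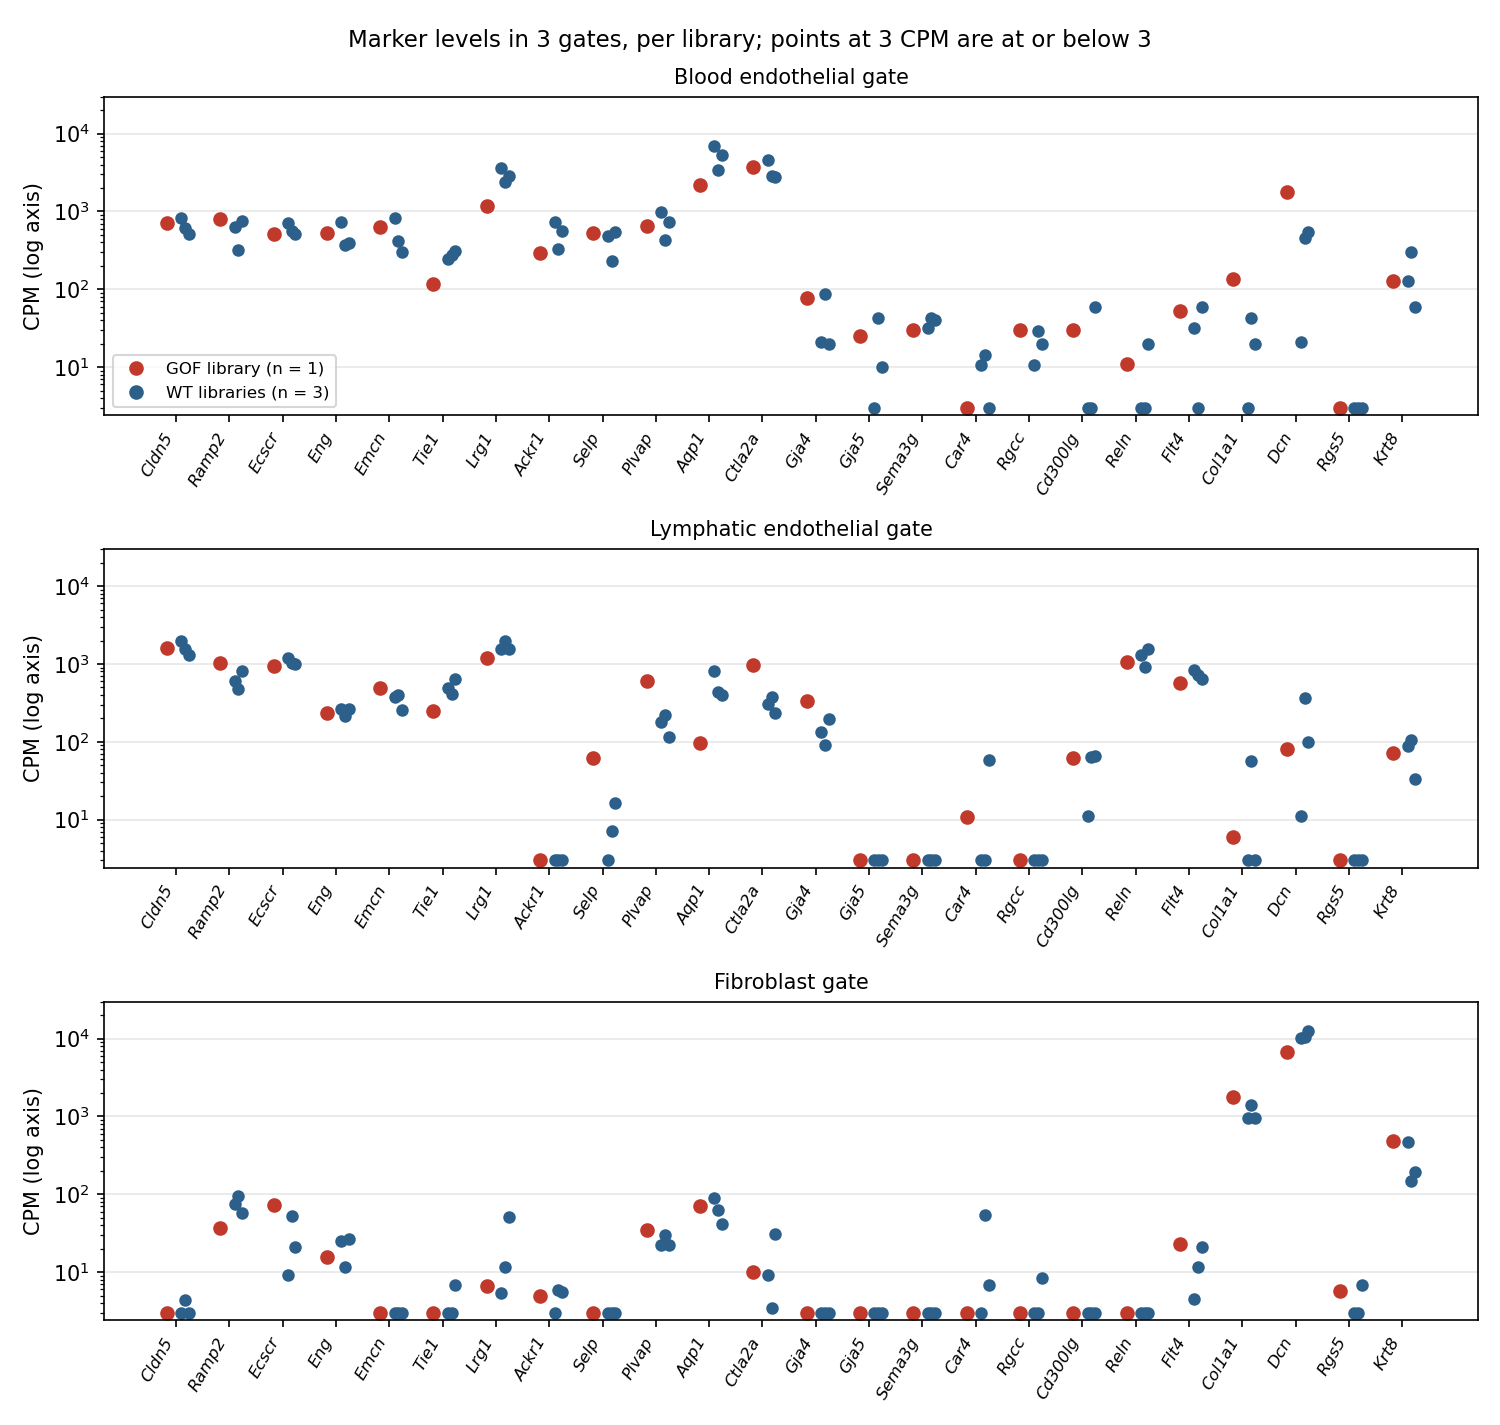
CPM of endothelial, venular, arterial, capillary, lymphatic, fibroblast, mural and epithelial marker genes in the blood endothelial, lymphatic and fibroblast gates, on a log axis, with 1 point for the GOF library and 3 for the wild-type libraries. Ackr1 is present in all 4 libraries of the blood endothelial gate and at 0 in the lymphatic gate, and Reln shows the reverse order.

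The 20 genes highest over all other filtered cells, outside the rule, were led by venular and general endothelial genes. Ackr1, the atypical chemokine receptor that carries chemokines across venules, was at 292 CPM in the GOF library and 721, 332 and 567 CPM in the wild-type libraries, and at 0 in every library of the lymphatic gate. Selp, P-selectin, was at 526 CPM in the GOF library and 477, 231 and 537 CPM in the wild-type libraries, against at most 61.4 CPM in the lymphatic gate. Aqp1, the water channel aquaporin 1, was at 2210 CPM in the GOF library and 6981, 3459 and 5250 CPM in the wild-type libraries. The GOF value lay below the 3 wild-type values for Ackr1 and Aqp1 and among them for Selp. Tacr1, the substance P receptor, was at 162 CPM in the GOF library and 74.3, 115 and 89.5 CPM in the wild-type libraries, with 0 in the lymphatic gate and at most 0.223 CPM in other cells. Jam2, a junction molecule, was at 372 CPM in the GOF library and 339, 447 and 428 CPM in the wild-type libraries, and Lef1, a DNA-binding partner of beta-catenin, at 195 CPM and 159, 57.7 and 109 CPM. Both were at 0 in every library of the lymphatic gate. The other genes of the 20 were Ctla2a, Grrp1, Myct1, Plvap, Syt15, Mmrn2, Nxpe2, Adgrl4, Mecom, Emcn, Pcdh17, Robo4, Fgd5 and Eng.

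Venular genes were seen in most members, and the capillary genes Car4 and Rgcc were scarce. With a UMI of at least 2 of 12 venular genes counted as venular, 90.6% of GOF members qualified and 90.0%, 76.7% and 84.5% of wild-type members. For the 12 capillary genes the shares were 65.9% in the GOF library, with 93.3%, 66.7% and 65.5% in the wild-type libraries, and for the 12 arterial genes 48.2% and 36.7%, 30% and 25.9%. These lists overlap in single cells, and 78.8% of GOF and 65.5% to 86.7% of wild-type members met more than 1. After each cell was thinned to 1000 UMIs, which left out 5 GOF cells and 0, 6 and 12 wild-type cells, the venular share was 68.75% in the GOF library, with 86.7%, 75% and 82.6% in the wild-type libraries. Thinning put the capillary share at 41.25% in the GOF library, with 73.3%, 41.7% and 60.9% in the wild-type libraries. At this equal depth the GOF library was thus below all 3 wild-type libraries for both lists, which it was not before thinning. Its counting interval still overlapped all 3 wild-type intervals for the venular list, and those of libraries 2 and 3 for the capillary list. The thinned arterial share was 17.5% in the GOF library, with 20%, 20.8% and 8.70% in the wild-type libraries, so the higher unthinned arterial share of the GOF library was not present at equal depth. The capillary count rested on Aqp1, Plvap and Fabp4, which venules express too. Plvap, the diaphragm protein of fenestrated vessels, was at 641 CPM in the GOF library and 976, 432 and 726 CPM in the wild-type libraries. Fabp4, a fatty acid carrier, was at 768 CPM in the GOF library and 774, 332 and 646 CPM in the wild-type libraries. Car4, the capillary carbonic anhydrase, was at 2.75 CPM in the GOF library and 10.6, 14.4 and 0 CPM in the wild-type libraries, and Rgcc at 30.3 CPM and 10.6, 28.8 and 19.9 CPM. The 12 cell cycle genes summed to 129 CPM in the GOF library and 106, 86.5 and 49.7 CPM in the wild-type libraries.

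The connexins Gja5 and Gja4 and the semaphorin Sema3g lay almost wholly in cells without Ackr1, more so than Bmx and Sox17. Over all 203 members, 98 held a UMI of Ackr1 and 95 of Selp, and 66 held both. Gja5 was seen in 10 cells and Sema3g in 15, none of which held Ackr1, and 2 of each held Selp. Gja4 was seen in 17 cells, 1 of them with Ackr1, and shared 8 cells with Sema3g. The kinase gene Bmx was less exclusive: of its 33 cells 9 held Ackr1 and 14 held Selp. Sox17, a transcription factor of arteries, was seen in 58 cells, of which 29 held Ackr1 and 31 held Selp.

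A small arterial group could be read from these cells. Members with at least 2 of Gja5, Sema3g, Gja4 and the kinase gene Bmx and no UMI of Ackr1 or Selp, a rule set after seeing the data, numbered 6 in the GOF library, with 2, 3 and 3 in the wild-type libraries. Members with Ackr1 or Selp and under 2 of those 4 genes numbered 46 in the GOF library, with 24, 15 and 39 in the wild-type libraries; 3 GOF cells met both rules, and 30 GOF and 4, 12 and 16 wild-type cells met neither. Gkn3, a gastrokine gene known from mouse brain arterial endothelium, was at 2007 CPM in arterial-marker cells against 9.16 CPM in venular-marker cells of the GOF library. In the pooled wild-type libraries Gkn3 was at 1236 CPM in arterial-marker cells, with no UMI in venular-marker cells. Cytl1, a secreted cytokine-like protein, was at 3029 CPM in arterial-marker against 27.5 CPM in venular-marker GOF cells, and at 6294 against 118 CPM in the wild type. Eln, the elastin of arterial walls, was at 1211 against 179 CPM in the GOF library and 1742 against 118 CPM in the wild type. These genes were not used to pick the cells, but they were taken from the top of a ranking over both genotypes, so the like order in the 2 genotypes follows from that choice.

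Genes on the venular side were as far apart. Aqp1 had no UMI among 26414 UMIs of arterial-marker GOF cells, against 3202 CPM in venular-marker cells, and in the wild type it was at 169 CPM, from 3 UMIs, against 6578 CPM. Ctla2a, a cysteine protease inhibitor, was at 114 CPM in arterial-marker against 5570 CPM in venular-marker GOF cells, and at 56.2 against 4402 CPM in the wild type. Lrg1, a secreted glycoprotein of venules, was at 227 against 1626 CPM in the GOF library and 281 against 3658 CPM in the wild type. Vwf, often higher in veins, was at 1628 against 1012 CPM in the GOF library and 1573 against 1246 CPM in the wild type. With 6 GOF and 8 wild-type arterial-marker cells, these values describe few cells and carry no test.

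**Figure D2:**
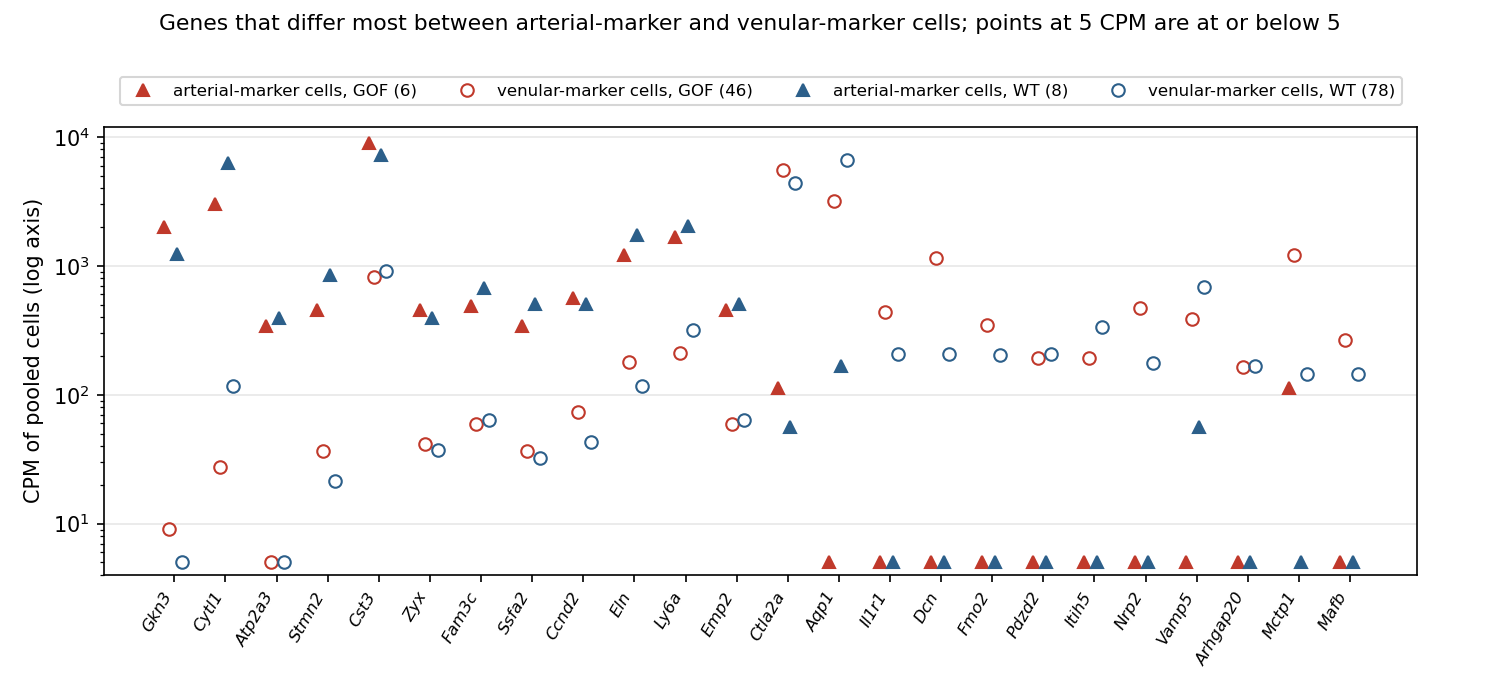
CPM of pooled arterial-marker cells (triangles) and venular-marker cells (open circles) in the GOF library and the wild-type libraries, on a log axis, for the genes that differ most between them. Gkn3 and Cytl1 stand high in arterial-marker cells and Aqp1 and Ctla2a in venular-marker cells in both genotypes.

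How many cells looked like liver sinusoidal cells depended on the genes used and on depth. At least 2 of 8 listed sinusoidal genes were seen in 21.2% of GOF members (18 of 85). Wild-type libraries 1, 2 and 3 had 6.67%, 3.33% and 6.90%. Thinned to 1000 UMIs, the GOF share was 2.5%, against wild-type shares of 3.33%, 0% and 2.17%. Stab1, which is on that list, was seen in 65 of all 203 members. With only Stab2, Clec4g, Oit3 and Dnase1l3 counted, at least 2 were seen in 1 GOF cell and in 1 cell of wild-type library 3. The GOF cell held 20 UMIs of the scavenger receptor Stab2 and 21 of the lectin Clec4g.

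Blood endothelial members made up 0.842% of filtered cells in the GOF library (exact Clopper-Pearson 95% interval 0.673% to 1.04%), against 0.658% (0.444% to 0.937%), 1.21% (0.818% to 1.72%) and 2.76% (2.10% to 3.55%) in wild-type libraries 1, 2 and 3. The GOF share lay within the wild-type range, but not at a limit of 10% mitochondrial UMIs, where it was 0.818%, against 1.03%, 1.79% and 6.60% in the wild-type libraries. Thinned to 1000 UMIs the shares were 0.689% in the GOF library, with 0.603%, 0.832% and 2.13% in the wild-type libraries. The intervals cover counting error only, and with 1 library against 3 no test was made.

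The genotype comparison asked which genes differed in endothelium between the duct with Ctnnb1 gain of function and normal ducts. Of 15 immediate-early genes 10 rose, the flow-responsive factor gene Klf4 rose, the venular gene Lrg1 fell, and most vessel-type, Notch, VEGF and Wnt genes did not pass the test. Of 2566 genes tested, 202 (7.87%) passed a Benjamini-Hochberg threshold of 0.05 in edgeR's quasi-likelihood test, 142 higher in GOF (5.53%) and 60 lower (2.34%). The test had 2 residual degrees of freedom, and no gene passed without wild-type library 2, where 486 had an unadjusted p under 0.05. DESeq2 called 83 genes, 47 higher and 36 lower. Without the stromal-marker cells 354 of 2544 genes passed (13.9%; 9.67% higher and 4.25% lower), among them 127 of the 142 rises and 59 of the 60 falls.

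Gene length in the genome moved with the direction of the calls. The 142 rises had a median of 206535 intron bases and 77.5% had over 50 kb, the 60 falls a median of 792 intron bases with 3.33% over 50 kb, and the genes that did not pass a median of 16350 with 27.2%. Camk1d, a calcium-dependent kinase, had 239 UMIs in 73 of 85 GOF cells against 1 in the wild type, a pooled ratio of 174 (counting interval 30.9 to 6893). In the fibroblast gate (at least 4 of 7 fibroblast genes) Camk1d was at 260 CPM in the GOF library. The wild-type libraries held at most 0.978 CPM there. Many cells of this gate, called fibroblasts below, also held mesothelial markers. Those with a UMI of under 2 of 6 such markers were 416 of 831 GOF cells. In wild-type libraries 1, 2 and 3 they were 90 of 190, 137 of 308 and 179 of 239 cells. Prkg1, a cyclic GMP-dependent kinase, had 366 UMIs in 55 GOF cells against 2 in the wild type, a ratio of 133 (36.6 to 1103), with 414 CPM in GOF fibroblasts against 6.36 to 19.4 CPM in wild-type fibroblasts. Whether intronic reads were counted is not stated, and this cannot be told apart from genotype. When 682 genes with no more than 5 kb of intron were tested alone, 14 passed, 12 higher and 2 lower.

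**Figure D3:**
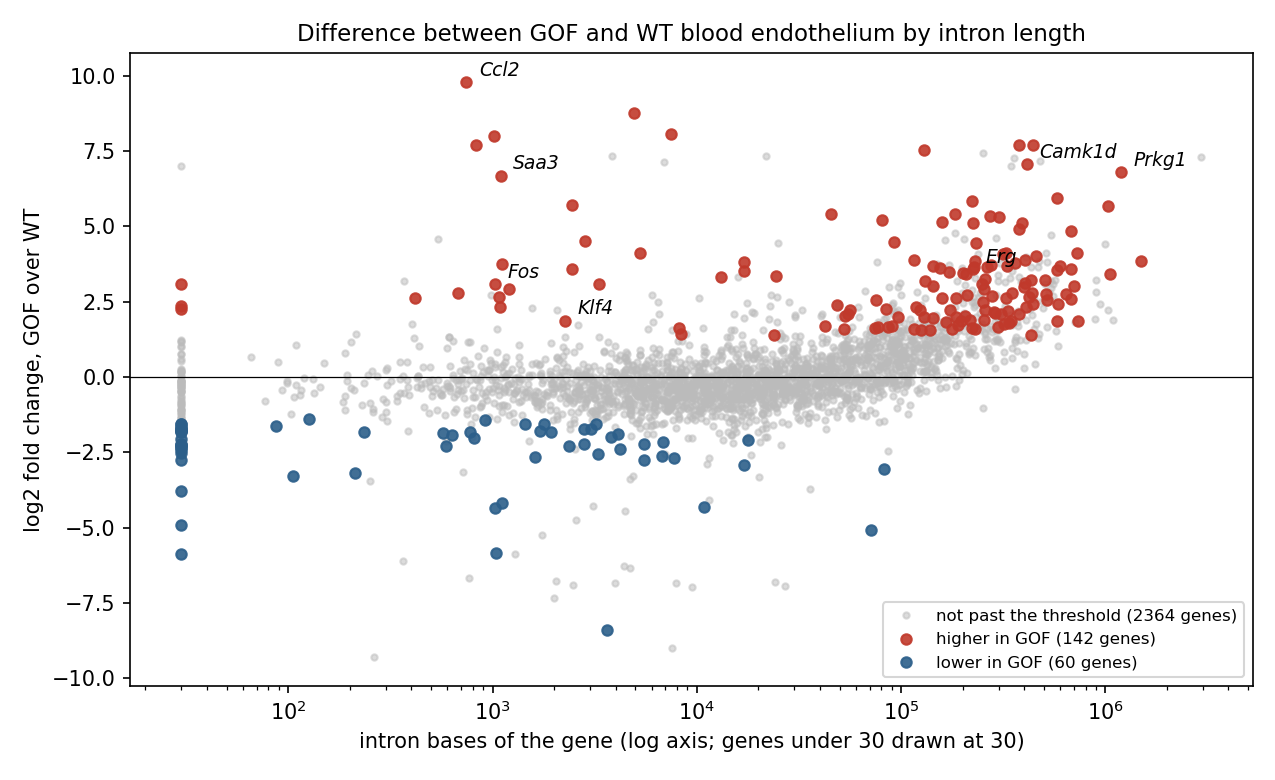
Log2 fold change of GOF over wild-type blood endothelium against the intron bases of each gene, on a log axis, for all 2566 genes tested. The genes higher in GOF sit mostly at the right, with Prkg1 and Camk1d among them, and the genes lower in GOF mostly at the left, with Fos, Klf4, Ccl2 and Saa3 as rises with short introns.

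Immediate-early genes, which are switched on quickly by a stimulus and are also known to respond to enzymatic dissociation, were the list with the most calls. Of 15 tested, 10 rose in GOF, against 5.53% of all genes, and none fell. Their median log2 fold change was 2.36 against -0.07 over all genes tested, and all 15 were above 0. Fos, a subunit of the AP-1 factor, was at 2422 CPM in the GOF library and 138, 303 and 348 CPM in wild-type libraries 1, 2 and 3 (log2 fold change 3.08, SE 0.433, edgeR adjusted p 0.00164). Jun, its partner, was at 1627 CPM in the GOF library and 191, 288 and 388 CPM in the wild-type libraries (2.36, SE 0.400, adjusted p 0.00397 in edgeR). Egr1, a zinc finger factor, was at 606 CPM in the GOF library and 42.4, 115 and 89.5 CPM in the wild-type libraries (2.78, SE 0.444, adjusted p 0.0029 in edgeR). In all 3 the GOF value lay far above the highest wild-type value, and their introns are short.

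Further members of that list behaved alike. Atf3, however, has 45590 intron bases, and intron counting cannot be told apart from genotype for it. Atf3, a stress-induced factor, had 205 UMIs in 40 GOF cells, or 564 CPM, and 10.6, 28.8 and 0 CPM in the wild-type libraries (log2 fold change 5.42 with an edgeR adjusted p of 0.00065). Btg2, an antiproliferative gene, was at 592 CPM in the GOF library and 74.3, 72.1 and 69.6 CPM in the wild-type libraries (2.91, edgeR adjusted p 0.0012). Fosb, Nr4a1, Dusp1, Zfp36 and Socs3 completed the 10, while Junb, Jund, Ier2, Ier3 and Klf6 did not pass. Without the stromal-marker cells 13 of 15 rose, against 9.67% of all genes. Thinned to 1000 UMIs, 63.8% of GOF members held Fos, against 3.33%, 16.7% and 21.7% of wild-type members.

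Other cells held the same genes at high GOF levels. The 16 listed genes summed to 11982 CPM in GOF endothelium and 1910, 2941 and 3073 CPM in wild-type endothelium. All other filtered cells held 15952 CPM in the GOF library and 3070, 4278 and 5100 CPM in the wild-type libraries. The lymphatic gate held 5899 CPM and 2305, 3608 and 3541 CPM, and 0 of 15 genes passed the interaction with that gate. In the fibroblast gate 1 of the 15, Atf3, passed a test of its own. Fos was at 1518 CPM in GOF fibroblasts and 87.8, 332 and 601 CPM in wild-type fibroblasts (log2 fold change 1.98 with an edgeR adjusted p of 0.258). Its thinned share was 58.2% of GOF fibroblasts and 10.6%, 28.1% and 45.9% of wild-type fibroblasts. The difference between the endothelial and fibroblast changes of Fos was 0.97 (SE 0.541, edgeR adjusted p 1 in the interaction test), and for Jun 0.87 (SE 0.537, adjusted p 1). Socs3, the feedback inhibitor of cytokine signalling, was the exception among the 15: it was at 363 CPM in the GOF library and 95.5, 57.7 and 9.94 CPM in the wild-type libraries, while fibroblasts held 125 CPM in the GOF library and 134, 134 and 187 CPM in the wild-type libraries. The interaction of Socs3 was 3.17 (SE 0.625, edgeR adjusted p 0.000305; 0.207 at most when 1 wild-type library was left out). Depth per cell and the mitochondrial share differed between the genotypes as well, and their part in these values was not tested.

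**Figure D4:**
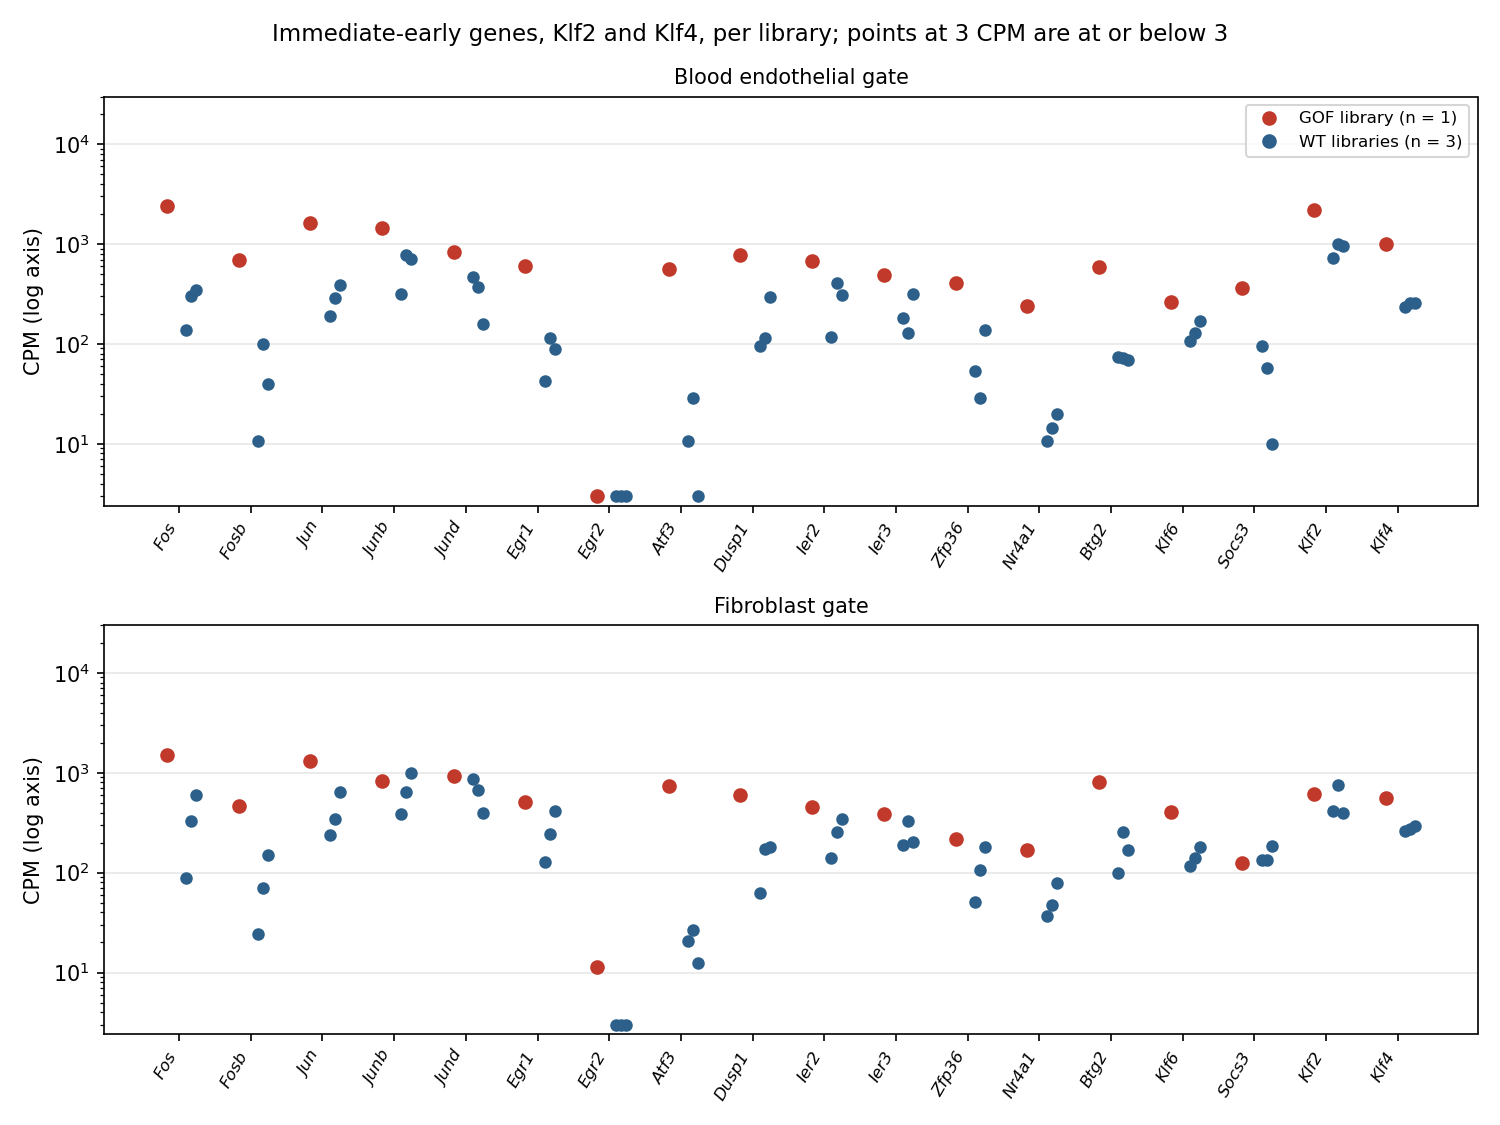
CPM of the immediate-early genes with Klf2 and Klf4 in the blood endothelial gate and the fibroblast gate, on a log axis, with 1 point for the GOF library and 3 for the wild-type libraries. In the endothelial gate Fos is at 2422 CPM in the GOF library and at most 348 CPM in the wild-type libraries, and in the fibroblast gate the distance is smaller.

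Factors that respond to blood flow followed. The 8 listed genes summed to 3856 CPM in GOF endothelium and 1369, 1773 and 1979 CPM in wild-type endothelium. All other filtered cells held 857 CPM in the GOF library and 266, 493 and 390 CPM in the wild-type libraries. The lymphatic gate held 1941 and 1108, 1304 and 2072 CPM, and the fibroblast gate 1449 and 1002, 1293 and 1002 CPM. The median interaction was 1.01 with the fibroblast gate and 0.117 with the lymphatic gate. The values below are of blood endothelium. Klf4 was at 996 CPM in the GOF library and 233, 259 and 259 CPM in the wild-type libraries (log2 fold change 1.88, SE 0.338, edgeR adjusted p 0.00619), and was seen in 62 of 85 GOF cells. Klf2, its relative that holds endothelium quiescent under flow, was at 2180 CPM in the GOF library and 732, 1009 and 965 CPM in the wild-type libraries (1.16, SE 0.354, edgeR adjusted p 0.071; 0.0058 without the stromal-marker cells). Nos3, the endothelial nitric oxide synthase, was at 140 CPM in the GOF library and 31.8, 28.8 and 129 CPM in the wild-type libraries and did not pass, nor did the 4 other members tested. Klf4 was thus 1 call of 7, against 7.87% of all genes.

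Most general endothelial genes did not pass the test. Of 21 pan-endothelial genes tested, 2 rose and none fell, a share near the 7.87% of all genes, with a median log2 fold change of 0.04. Calcrl, the receptor for adrenomedullin when paired with Ramp2, was at 451 CPM in the GOF library and 95.5, 115 and 169 CPM in the wild-type libraries (1.69, SE 0.408, edgeR adjusted p 0.0255). Erg, an ETS factor of endothelial identity, had 57 UMIs in 35 GOF cells and 1 UMI in each wild-type library (3.58, SE 0.990, edgeR adjusted p 0.0473). Calcrl, with 89904 intron bases, and Erg both span over 50 kb of intron, like most of the rises. Cldn5, the main claudin of endothelial tight junctions, was at 721 CPM in the GOF library and 817, 620 and 517 CPM in the wild-type libraries, within their range.

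Among vessel-type genes the 10 venular genes tested held 1 fall and no rise, against 2.34% falls among all genes. Without the stromal-marker cells 9 were tested and held 1 rise, Sele, and 1 fall, Lrg1 (edgeR adjusted p 0.0431 and 0.0324). Among all genes 9.67% rose and 4.25% fell in that setting. Lrg1 was at 1184 CPM in the GOF library and 3649, 2378 and 2814 CPM in the wild-type libraries (log2 fold change -1.42, SE 0.392, edgeR adjusted p 0.0464). The groups did not overlap, and the adjusted p reached 0.158 in edgeR when 1 wild-type library was left out. Ackr1 (-1.01, edgeR adjusted p 0.201), Aqp1 (-1.35, adjusted p 0.0814) and Selp (0.20, adjusted p 0.823) did not pass. None of 6 arterial, 3 capillary or 3 tip-cell genes passed. Without the stromal-marker cells 1 tip-cell gene rose, Adm, the peptide adrenomedullin (4.81, edgeR adjusted p 0.035). Of its UMIs 32 lay in 1 GOF cell and 8 in another, and those cells also held 19 and 7 UMIs of the lymphatic gene Prox1.

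Receptors and ligands gave few calls. Among 9 VEGF, TIE and BMP receptor genes none passed. Without the stromal-marker cells 1 of 9 rose, the BMP receptor gene Bmpr2 (1.27, edgeR adjusted p 0.0337), against 9.67% of all genes. Bmpr2 was at 396 CPM in the GOF library and 170, 202 and 179 CPM in the wild-type libraries with all members. Kdr, the main VEGF receptor, was at 234 CPM in the GOF library and 223, 144 and 159 CPM in the wild-type libraries, and Tie1 at 118 CPM and 244, 274 and 308 CPM (log2 fold change -1.33 with an edgeR adjusted p of 0.0811). Among 4 Notch genes none passed, with Hes1, a Notch target, at 239 CPM in the GOF library and 117, 173 and 268 CPM in the wild-type libraries. Of 8 Wnt genes tested none passed. Ctnnb1 itself, for which a 3′ tag checks nothing about the allele, was at 242 CPM in the GOF library and 318, 389 and 298 CPM in the wild-type libraries (-0.57, SE 0.385, edgeR adjusted p 0.403). The Wnt feedback gene Axin2 was at 5.51 CPM in the GOF library and 10.6, 0 and 9.94 CPM in the wild-type libraries, and Notum had no UMI in any library. At such low counts Axin2 and Notum cannot show whether these cells had a Wnt response.

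Genes of leukocyte exit were present in both genotypes. Of 13 tested only the chemokine gene Ccl2 passed, against 7.87% of all genes. Without the stromal-marker cells 2 of 10 did, Ccl2 and Sele, against 13.9% of all genes. Most UMIs of Ccl2, 239 of 267, lay in 1 GOF cell. Icam1 was at 267 CPM in the GOF library and 95.5, 57.7 and 159 CPM in the wild-type libraries (log2 fold change 1.19 with an edgeR adjusted p of 0.166). Sele, E-selectin, was at 182 CPM in the GOF library and 0, 86.5 and 39.8 CPM in the wild-type libraries (2.09, edgeR adjusted p 0.145; 0.0431 without the stromal-marker cells). The class I antigen gene H2-K1 was at 1778 CPM in the GOF library and 1963, 1672 and 1561 CPM in the wild-type libraries, and none of 10 antigen presentation genes passed.

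Among 9 vessel tone genes 1 passed, Calcrl, against 7.87% of all genes. Without the stromal-marker cells 2 passed, Calcrl and Adm, against 13.9% of all genes. The UMIs of Adm lay mainly in the cells with Prox1 described above. None of 9 basement membrane and 10 transport genes passed with or without the stromal-marker cells. Edn1, the constrictor endothelin 1, was at 146 CPM in the GOF library and 286, 274 and 209 CPM in the wild-type libraries (log2 fold change -0.91 with an edgeR adjusted p of 0.199). Sparc, a matrix glycoprotein, was at 1883 CPM in the GOF library and 1878, 1485 and 1054 CPM in the wild-type libraries. The 15 listed respiratory chain genes were lower in GOF in endothelium and in other cells alike. They summed to 4572 CPM in GOF endothelium and 8105, 7063 and 6642 CPM in wild-type endothelium. In that order the lymphatic gate held 5576 and 7779, 7684 and 7405 CPM, and the fibroblast gate 5416 and 7049, 8351 and 7053 CPM. All other filtered cells held 6434 and 10548, 9965 and 9012 CPM. The median interaction was -0.15 with fibroblasts and -0.16 with lymphatic cells. In energy metabolism 1 of 15 respiratory chain genes fell, against 2.34% of all genes, and without the stromal-marker cells 5 of 15 fell, against 4.25% of all genes. The median log2 fold change of the 15 was -0.93 with all members, against -0.07 over all genes. The 5 were Uqcr10, Ndufa4, Sdhb, Cox7c and Atp5e, and the one that also passed with all members was Uqcr10, a subunit of complex III, at 165 CPM in the GOF library and 499, 418 and 447 CPM in the wild-type libraries (-1.57, edgeR adjusted p 0.029). Of 6 glycolysis genes 1 fell, against 2.34% of all genes. It was Eno1, an enolase, at 52.3 CPM in the GOF library, against 308, 360 and 239 CPM in the wild-type libraries (-2.61, edgeR adjusted p 0.00619).

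Several of the highest rises rested on 1 or 2 cells. Ccl2, the monocyte chemokine, had 267 UMIs in 5 GOF cells and none in the wild type, at least 64.7-fold higher against a floor of 3 counts over the pooled wild type (edgeR adjusted p 0.000186), and 239 of them lay in 1 cell. That cell held exactly 3 of the 7 gate genes and 2 stromal markers. Ccl7, a neighbouring chemokine gene, had 70 of its 76 UMIs in the same cell. Fibroblasts held both: Ccl2 was at 842 CPM in GOF fibroblasts and 16.0, 749 and 127 CPM in wild-type fibroblasts.

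Another pair of cells carried Rspo3, the R-spondin that enhances Wnt signalling and is made by the central vein endothelium of mouse liver. Of 66 GOF UMIs of Rspo3, 35 lay in 1 cell and 31 in the other, against 1 UMI in the wild type, a ratio of 48.0 (counting interval 8.32 to 1924; edgeR adjusted p 0.0179). Both cells held all 7 gate genes and 1 stromal marker each. They also held 23 and 35 of the 80 UMIs of Nts, neurotensin, which was at 220 CPM in the GOF library with no UMI in the wild type, and 4 and 2 of the 8 GOF UMIs of Wnt2. Nts was higher in the lymphatic gate, at 1292 CPM in the GOF library and 99.7, 121 and 347 CPM in the wild-type libraries. Saa3, an acute-phase protein, had 95.8% of its 1091 GOF UMIs in the stromal-marker cells, and without them it was at 160 CPM in the GOF library and 10.6, 0 and 63.9 CPM in the wild-type libraries (edgeR adjusted p 0.0825).

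**Figure D5:**
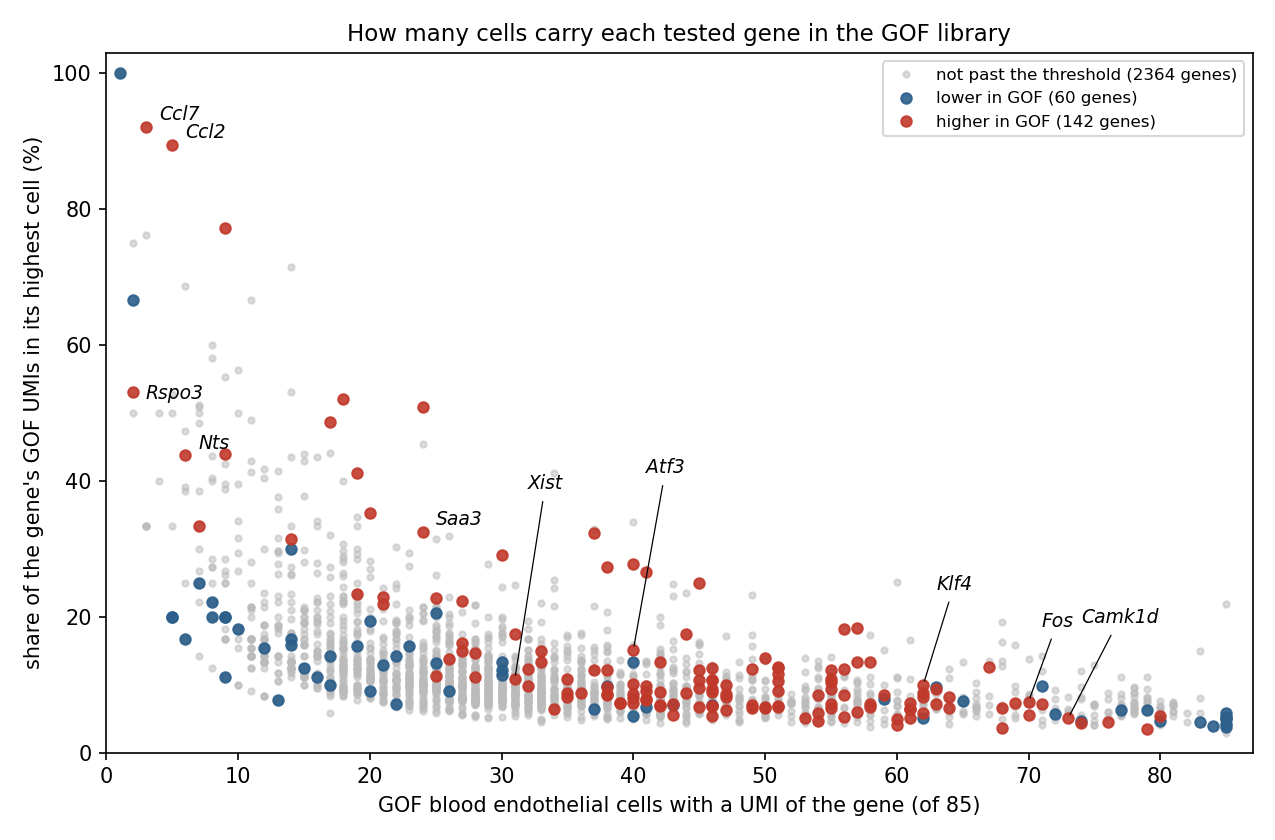
Share of each gene's GOF UMIs held by its highest cell, in percent, against the number of the 85 GOF members with a UMI of the gene, for the 2566 genes tested. Ccl2 and Ccl7 sit at the upper left, with 89.5% and 92.1% in 1 cell, while Fos, Klf4 and Camk1d are spread over 70, 62 and 73 cells.

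Among the 142 rises, 6 had over 50% of their GOF UMIs in 1 cell, 13 had over 50% in the stromal-marker cells and 7 were seen in fewer than 10 cells. The median rise was seen in 46 of the 85 cells. Dach1, a transcription factor of arterial growth, had 62 UMIs in 25 GOF cells and none in the wild type, at least 15.0-fold higher (edgeR adjusted p 0.0244), with 1.20 CPM in the GOF lymphatic gate and 0.546 CPM in GOF fibroblasts. Rundc3b had 55 UMIs in 21 GOF cells and none in the wild type, at least 13.3-fold higher (edgeR adjusted p 0.0433), with 2.41 and 3.91 CPM in those gates. Mecom, a zinc finger factor known from blood stem cells, was at 674 CPM in the GOF library and 53.0, 144 and 149 CPM in the wild-type libraries (2.43, SE 0.458, edgeR adjusted p 0.00785), and at 0 in every library of the lymphatic gate. Mecom has 584286 intron bases, and intron counting cannot be told apart from genotype for it. For Dach1, Rundc3b and Mecom alike, a low level in other gates does not separate these. Xist had 130 UMIs in 31 GOF cells and none in the wild type, and Rnasek 62 in 40 GOF cells and none, and both also rose in fibroblasts (edgeR adjusted p 0.00264 and 0.00663). Xist is transcribed from the inactive X chromosome of female cells, and the labels do not give the sex of any library. Zfpm2 completed the 10 largest rises.

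The 10 largest falls included secreted products of epithelial and pancreatic cells. Ctrb1, pancreatic chymotrypsinogen, had no UMI in the GOF library and 223, 28.8 and 477 CPM in the wild-type libraries (edgeR adjusted p 0.0114). Fibroblasts held 0.637 CPM of Ctrb1 in the GOF library and 37.4, 10.8 and 791 CPM in the wild-type libraries. Spink4, a secreted protease inhibitor, was at 57.8 CPM in the GOF library and 393, 2249 and 636 CPM in the wild-type libraries (-4.32, edgeR adjusted p 0.0181), and all other filtered cells held 1305 CPM in the GOF library and 10649 to 21433 CPM in the wild-type libraries. Dmbt1, a secreted mucosal scavenger protein, was seen in 15.0% of thinned GOF members and 30%, 41.7% and 69.6% of thinned wild-type members. Thinned fibroblasts, which should lack it, held it in 15.2% in the GOF library, with 19.0%, 34.1% and 59.6% in the wild-type libraries. Gstp1, Wfdc18, Usp50, Hypk, Smim27 and Strn4 were also among the 10, of which Spink4, Gstp1 and Usp50 also fell in fibroblasts (edgeR adjusted p 0.0183, 0.0463 and 0.00934).

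Comparison with the fibroblast gate of the same libraries, its mesothelial-marker cells included, removed what shifted a gene alike in both gates. The median interaction over the genes tested was 0.149 in log2. With the mesothelial-marker cells left out of that gate it was 0.0443. Of 10122 genes tested for this interaction 68 passed (0.672%), 56 with a higher GOF change in endothelium (0.553%) and 12 with a lower one (0.119%). Without the stromal-marker cells 25 of 10025 passed. The largest were Ccl2 (11.73, SE 1.75, edgeR adjusted p 6.35e-08) and Ccl7 (10.67, adjusted p 0.0001 in edgeR), both carried by the cell described above. Tdo2 and Ildr2 had all of their 12 and 21 GOF UMIs in stromal-marker cells, while Hebp1 had 13 UMIs in 11 GOF cells and none in the wild type. On the lower side Vcam1, the leukocyte adhesion molecule, was at 182 CPM in the GOF library and 393, 303 and 199 CPM in the wild-type libraries, while fibroblasts held 384 CPM in the GOF library and 38.2, 182 and 134 CPM in the wild-type libraries. Its interaction was -2.50 (SE 0.575, edgeR adjusted p 0.00562; -3.10 and 0.000128 without the stromal-marker cells; up to 0.680 when 1 wild-type library was left out). Pcp4l1 and Tes were the other 2 named falls.

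Against lymphatic endothelium of the same libraries 16 of 3552 genes passed (0.450%), 13 with a higher GOF change in blood endothelium (0.366%) and 3 with a lower one (0.0845%). DESeq2 called none, and none passed without wild-type library 1. Saa3, Nkain4, Col1a2 and Sdc4 had 95.8%, 98.4%, 97.9% and 90.7% of their GOF endothelial UMIs in the stromal-marker cells. Adm, adrenomedullin, had 42 UMIs in 3 GOF cells, 32 of them in 1 cell and 8 in another. Those cells also held 19 and 7 of the 37 UMIs of the lymphatic regulator Prox1. Vcam1 was again lower: the lymphatic gate held 89.1 CPM in the GOF library and 22.2, 7.09 and 8.26 CPM in the wild-type libraries, and the interaction was -3.50 (SE 0.694, edgeR adjusted p 0.0163). H2-Q7, a class I gene of a family with near-identical copies and named after its values were seen, was at 239 CPM in the GOF library and 202, 346 and 169 CPM in the wild-type libraries of blood endothelium, against 205 CPM and 0, 7.09 and 0 CPM in the lymphatic gate (interaction -5.91, edgeR adjusted p 0.000971).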

How the data were processed

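The authors deposited raw UMI counts by gene and called cell barcode. Per the file headers, Cell Ranger 7.0.0 made the GOF matrix and version 3.0.2 the wild-type matrices; Cell Ranger 7.1 and mm10 are named per the submitters' processing notes. Neither the release of the gene reference nor intron counting is stated. The 30406 gene identifiers in both references were used, and 597 with differing symbols took the wild-type symbol; Ccl21a joins 2 identifiers of near-identical copies.

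Filtered cells (at least 500 genes, at most 25% mitochondrial UMIs) numbered 10101 in the GOF library and 4562, 2480 and 2103 in wild-type libraries 1, 2 and 3. Scrublet scores in scanpy 1.11.5 marked 5 GOF and 1, 1 and 3 wild-type members at 0.8% per 1000 barcodes; these were kept, and left out as an alternative. UMIs were summed per library and gate. CPM is a gene's UMIs scaled to those sums, without TMM factors; log2 fold changes come from edgeR 4.0.16 (quasi-likelihood, TMM, filterByExpr, Benjamini-Hochberg at 0.05) in R 4.3.3, with interactions fitted with the library as a block. DESeq2 1.42.0 and limma 3.58.1 (voom) were alternatives. Lower bounds use a floor of 3 counts over the 264201 pooled wild-type UMIs; intervals and floors cover counting error only. Shares of cells were compared after thinning to 1000 UMIs.

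Named genes were all genes of the gate, the 20 highest over other cells with at least 50 CPM, the 10 largest rises and 10 largest falls and 5 per direction of each interaction past the threshold with at least 20 CPM and GOF outside the range of the wild-type libraries, and up to 5 members of each list; predicted, mitochondrial and ribosomal genes were not named. A few genes that the rule or the lists would name are not reported here. The cells, lists and tests were chosen with earlier results of these data known. Simulated counts had the means of the pooled wild-type libraries. On these the genotype test on 2245 genes recovered 63.8% of genes changed by 2 on the log2 scale. It recovered 74.6% of genes changed by 3, with 7 false calls. The interaction with fibroblasts, on 9550 genes, recovered 21.5% and 44.9%, with 1 false call. All genes and libraries were drawn with 1 dispersion, 0.0823 and 0.0393 in the 2 comparisons. The real spread varies by gene, so these shares do not measure power in the real counts.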

Additional observations from a re-analysis of the deposited data

Results flagged for a closer look

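The differences listed here passed a test of the difference between gates, the change of GOF against wild type in blood endothelium minus the same change in another gate of the same libraries (log2, edgeR, Benjamini-Hochberg). Against the fibroblast gate the largest were Ccl2 (11.73) and Ccl7 (10.67), which lay mainly in 1 GOF cell. Tdo2 (9.97) and Ildr2 (9.73) lay wholly in stromal-marker cells, and without those cells their differences were 1.14 and 0.10. Hebp1 (9.74) rested on 13 GOF UMIs. The other direction held Pcp4l1 (-5.85), Tes (-3.84) and Vcam1 (-2.50). Pcp4l1 was at 366 CPM in GOF endothelium and 605, 432 and 408 CPM in wild-type endothelium, and at 2.73 CPM in GOF fibroblasts and 0 in wild-type fibroblasts. Tes was at 44.0 CPM in GOF endothelium and 74.3, 57.7 and 79.6 CPM in wild-type endothelium, and at 28.5 CPM in GOF fibroblasts and 2.29, 2.45 and 4.15 CPM in wild-type fibroblasts.

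Against the lymphatic gate the differences were Saa3 (6.22), Nkain4 (6.13), Col1a2 (5.41), Adm (4.55) and Sdc4 (4.29) on the higher side and Vcam1 (-3.50) on the lower side. In Saa3, Nkain4, Col1a2 and Sdc4 the GOF UMIs lay mostly in the stromal-marker cells.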

How the results depend on the processing

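No paired analysis was possible because there was only 1 GOF library and the labels link it to no wild-type library. The 202 genes past the threshold between genotypes became 83 with DESeq2, 607 with no filter on low counts, 328 with at least 20 UMIs, 341 with at least 4 of the 7 genes, 14 at up to 5 kb of intron and 354 without stromal-marker cells (chosen after seeing the data). Leaving out 1 wild-type library gave 0 to 325, the 0 without library 2, and 65 without library 3; of the 202 genes 200 kept their call without library 1, 65 without library 3 and none without library 2, and none was called with the other sign under any setting. The fibroblast interaction gave 0 with DESeq2 (123 at an unadjusted p under 0.05), 44 with at least 4 of the 7 genes, 11 at up to 5 kb of intron, 25 without stromal-marker cells and 18 to 110 with 1 wild-type library left out. The lymphatic interaction gave 0 with DESeq2 (39 at an unadjusted p under 0.05) and 0 to 29 with 1 wild-type library left out, the 0 without library 1 (199 at an unadjusted p under 0.05). At no more than 10% mitochondrial UMIs the endothelial shares were 0.818% in the GOF library, below the 1.03%, 1.79% and 6.60% in wild-type libraries 1, 2 and 3, and the capillary share of wild-type library 1 was 100%. Thinned to 1000 UMIs, the arterial share was 17.5% in the GOF library and 8.70% in wild-type library 3. The thinned capillary share was 41.25% in the GOF library and 73.3%, 41.7% and 60.9% in wild-type libraries 1, 2 and 3. The thinned venular share was 68.75% in the GOF library, with wild-type values of 86.7%, 75% and 82.6%. The GOF value was the lowest for these last 2 lists. Its venular interval, 57.4% to 78.7%, overlapped those of wild-type libraries 1, 2 and 3. Its capillary interval, 30.4% to 52.8%, overlapped those of libraries 2 and 3 but not that of library 1, 54.1% to 87.7%. For named genes 1381 repeats stayed on the same side of the threshold, 165 lost a call and 55 gained one, and no call changed sign. A gene past the threshold in neither setting counted among the 1381 whatever its direction. The cause of these changes was not tested.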
